A study of Mus musculus with 12 samples.

Results

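The gap junction genes of heart muscle and vessels, Gja1, Gja3, Gja4, Gja5, Gjc1 and Gjd3, were followed in bulk RNA sequencing of mouse heart ventricles at embryonic day 12.5. They were taken by gene symbol from the count table, without a filter on counts, and are 6 of its 40800 genes. The libraries came from 6 control ventricle samples and 6 ventricle samples with the genotype wnt gof, a gain of function of the Wnt signalling pathway, written Wnt GOF here. The labels name neither the allele, the Cre driver nor the cells it acts in, nor whether a sample holds 1 embryo or several, and they give no age difference or further treatment. The ventricular marker Myl2 stood at 3151 ± 357 CPM (read counts per 1000000 of the library, SD, n = 6) in control libraries, and of the atrial markers Sln was at 12.2 CPM, but Myl7 at 2034 and Myl4 at 1902 CPM, light chain genes that embryonic ventricles also express. Axin2, a direct target of Wnt signalling, rose from 2.97 ± 1.09 CPM in control to 18.3 ± 8.18 CPM in Wnt GOF ventricles (log2 difference 2.62, adjusted p = 0.0145 by edgeR's quasi-likelihood test). The genotypes overlapped in Axin2, and its adjusted p in edgeR was 0.220 once the close library pairs named further on were summed. With 1 library left out the Axin2 log2 difference ranged from 2.49 to 2.83. The highest was without Wnt GOF 5, where the SE was 0.233 against 0.404 with all libraries. The beta-catenin gene Ctnnb1 averaged 279 ± 15.5 CPM (control) and 288 ± 26.9 CPM (Wnt GOF), with an edgeR adjusted p = 0.999.

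Connexins are membrane proteins that assemble into channels between neighbouring cells, and in heart muscle these gap junctions carry the current that spreads from myocyte to myocyte. Gja1 encodes Cx43, the main connexin of working ventricular muscle, and Gja5 encodes Cx40, found in atria, embryonic trabeculae, the ventricular conduction system and arterial endothelium. Gjc1 encodes Cx45, the first connexin of the forming heart, later found in conduction tissue and smooth muscle. Gja4 encodes Cx37 of vascular endothelium, Gja3 encodes Cx46, best known from the lens, and Gjd3 encodes a low-conductance connexin of the atrioventricular conduction tissue.

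Library totals ran from 10130088 to 17526325 counts in control and from 12127026 to 17184662 in Wnt GOF samples. The libraries were clustered into 3 sets by overall expression after the mean of each genotype was subtracted. Each set held 2 control and 2 Wnt GOF libraries. Since the subtraction removes the genotype difference, this clustering could not show whether the libraries divide by genotype. Set 1 held control 1 and 6 and Wnt GOF 5 and 6, set 2 control 2 and 3 and Wnt GOF 1 and 2, and set 3 control 4 and 5 and Wnt GOF 3 and 4. The sets come from the data and are no batch that the labels name. Control 2 and 3, Wnt GOF 1 and 2, and Wnt GOF 3 and 4 were far closer to each other than any other pair, with a mean chi-square per gene of 3.07 to 3.32 against at least 12.8 for every other pair within a group. Sampling noise alone gives about 1. The pairs were kept as separate samples, as the labels list them, but whether they are separate embryos or repeat preparations of the same tissue was not tested, and results are also given with each pair summed. Since the labels do not tie the samples to separate animals, the p-values measure only the spread between these libraries.

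The upstream sequences of the 3 members on which the comparison turns are shown first, since a question of this design is how these genes respond to Wnt activation. They are the 250 bases before the RefSeq start site on the gene's strand, in build GRCm38.p6, with motif matches in capitals. RefSeq start sites were found for 4 of the 6 members. The first bases after the Gja1 and Gja5 start sites were in no transcript of these genes in GENCODE M21, another gene annotation. The Gja5 window lies inside the GENCODE gene, which begins at 96904693, and the bases before that beginning were not searched. The Gja1 window lies at chr10:56377050-56377299 on the plus strand, the Gja5 window at chr3:97032152-97032401 on the plus strand, and the Gja4 window at chr4:127314040-127314289 on the minus strand.
Gja1: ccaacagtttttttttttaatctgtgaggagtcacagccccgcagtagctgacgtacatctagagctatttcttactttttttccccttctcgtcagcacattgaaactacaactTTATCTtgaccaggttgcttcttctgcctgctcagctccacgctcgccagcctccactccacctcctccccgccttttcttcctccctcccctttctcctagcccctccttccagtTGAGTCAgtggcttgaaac
Gja5: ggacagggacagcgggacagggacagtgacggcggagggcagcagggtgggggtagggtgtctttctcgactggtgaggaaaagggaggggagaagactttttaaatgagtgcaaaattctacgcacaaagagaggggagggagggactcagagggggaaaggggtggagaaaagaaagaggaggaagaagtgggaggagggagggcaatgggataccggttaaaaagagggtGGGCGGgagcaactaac
Gja4: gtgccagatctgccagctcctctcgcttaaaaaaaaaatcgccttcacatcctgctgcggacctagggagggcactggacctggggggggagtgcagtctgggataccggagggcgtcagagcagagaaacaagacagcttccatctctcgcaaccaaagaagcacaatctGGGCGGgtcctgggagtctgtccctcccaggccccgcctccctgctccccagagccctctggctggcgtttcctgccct

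Both strands were searched for short motifs. CTTTGA stood for TCF/LEF factors, the nuclear partners of beta-catenin. The letters GGTGTG stood for T-box factors and, for the homeobox factor NKX2-5, CAAGTG was used. GATA factors were represented by AGATAA and the core promoter element called the TATA box by TATAAA. The AP-1 motif was TGAGTCA, the motif of SP and KLF factors was GGGCGG, and MEF2 factors had a longer motif. The Gja1 window held TGAGTCA, beginning 19 bases before the start site, and TTATCT, the reverse complement of the GATA letters, beginning 135 bases before it. TGAGTCA occurs in 4.46% and the GATA letters in 9.99% of all 32817 promoter windows of this length. GGGCGG was the 1 match in the Gja5 window, 17 bases before the start, and the 1 match in the Gja4 window, 79 bases before it, and 32.7% of all windows hold it. The first Gja3 window, not printed because it overlaps an exon, held CTATTTATAG, a match to the MEF2 motif that 0.35% of windows hold. Part of it is also a match to TATAAA on the other strand. None of these windows held CTTTGA, which occurs in 13.8% of all windows, and this says only that those letters are not in these windows.

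In GENCODE release M21, build GRCm38, Gja1 (ENSMUSG00000050953) lies on chromosome 10 from 56377330 to 56402513 and Gja5 (ENSMUSG00000057123) on chromosome 3 from 96904693 to 97077416, both on the plus strand. Gja4 (ENSMUSG00000050234) lies on chromosome 4 from 127311421 to 127314039 and Gja3 (ENSMUSG00000048582) on chromosome 14 from 57034460 to 57058100, both on the minus strand. Gjc1 (ENSMUSG00000034520, 102799579 to 102819700) and Gjd3 (ENSMUSG00000047197, 98982180 to 98983016) share chromosome 11, also on the minus strand. The longest coding sequence of every member but Gja5 lies in 1 exon, and coding length ranged from 834 bases in Gjd3 to 1251 bases in Gja3. Over the aligned bases, coding sequences of any pair of members were 63.6% to 70.1% identical, Gja1 and Gjd3 being the least and Gja3 and Gja4 the most alike. Exons of Gja5 overlap Gpr89 and the antisense gene 4930573H18Rik on the opposite strand, so without a stated strand setting reads there cannot be told apart. The Gjd3 model is a single exon with 3 bases outside the coding sequence, so under that model reads from its UTRs would not be counted.

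Gja1 was by far the most abundant connexin transcript per length, followed by Gja5 and Gja4, then Gjc1, with Gja3 near the lower end and Gjd3 close to 0. On the scale of CPM per kilobase of annotated exon, control libraries held Gja1 at 135 ± 41.9, Gja5 at 40.8 ± 7.49, Gja4 at 23.4 ± 2.71, Gjc1 at 11.0 ± 1.07 and Gja3 at 0.947 ± 0.397 (SD, n = 6). No neighbours in this order overlapped among the control libraries, Gjd3 at 0 to 0.137 included. Among the Wnt GOF libraries Gja5 at 32.1 ± 9.999 and Gja4 at 28.7 ± 5.53 did overlap, from 19.9 to 43.6 and from 21.5 to 36.5. The order of Gja4 and Gjc1 depends on the gene model, because per kilobase of the longest coding transcript they came to 23.4 and 23.7 in control libraries, whereas Gja1 stayed first at 436 and Gja5 next at 63.9.

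**Figure D1:**
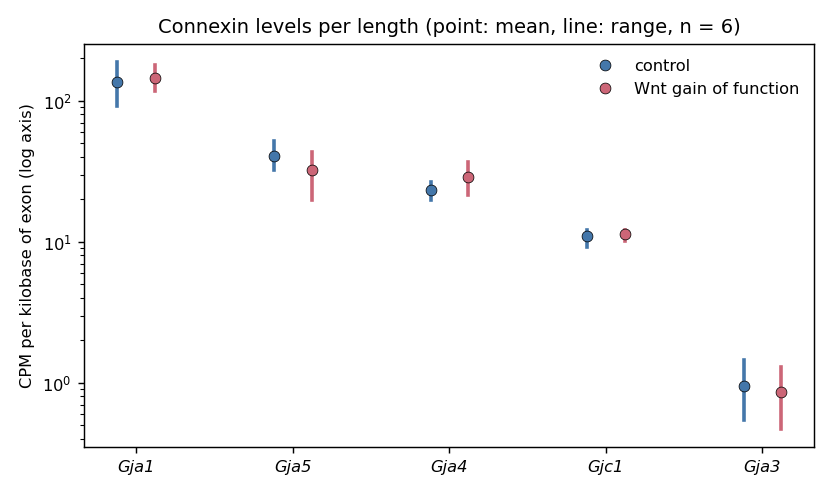
Level of 5 connexin genes in CPM per kilobase of annotated exon on a log axis, by genotype. Points are means and lines run from the lowest to the highest of 6 libraries. Gja1 stands above all others, and the Gja5 and Gja4 ranges overlap in the Wnt GOF libraries but not in control.

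No connexin was called as changed by Wnt gain of function. The low-count filter kept 5 of the 6 members, and 0 of these had an adjusted p under 0.05 in edgeR, against 0.501% of all 14774 genes tested (0.433% higher and 0.0677% lower). DESeq2 and limma-voom also called 0. At an unadjusted p under 0.05 there was 1 member, Gja4, where 6.3% of all tested genes reached this level. Of the 5, 3 lay above 0, as did 50.4% of all tested genes, and their median log2 fold change was 0.05 against 0.0013 over all tested genes. In none of them were the genotypes free of overlap, as 0.46% of all tested genes were.

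Gja1, the Cx43 gene, was at 944, 1234 and 1924 CPM (lowest, median and highest library) in control and at 1211, 1397 and 1830 CPM in Wnt GOF ventricles. All Wnt GOF values lay inside the control range. The means were 1388 ± 430 and 1477 ± 281 CPM (SD, n = 6), a log2 fold change of 0.09 ± 0.184 (SE) with a 95% interval from -0.30 to 0.48, so a change of 0.81-fold to 1.40-fold is within the error (edgeR adjusted p = 0.999). The high values lay in 1 library set, in both genotypes. The 4 libraries of set 2 held 1802 to 1924 CPM, and the other 8 between 944 and 1493 CPM. Within set 2 the control libraries were at 1920 and 1924 CPM, above both Wnt GOF libraries at 1830 and 1802 CPM. The Wnt GOF libraries were the higher ones in set 3, at 1226 and 1211 against 1173 and 944 CPM, and in set 1, at 1301 and 1493 against 1295 and 1072 CPM. The summed level of 10 atrial and atrioventricular canal markers was 2671 to 3613 CPM in set 2 and 4200 to 5263 CPM elsewhere, and that of 12 ventricular and trabecular myocyte markers 13593 to 15659 against 11387 to 13114 CPM. Haemoglobin genes took 0.948% to 1.26% of the counts in set 2 and 1.45% to 8.73% elsewhere. The part of tissue composition and blood in the Gja1 level was not tested. In bulk samples fewer cells of a type and less RNA per cell cannot be told apart.

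Gja5, the Cx40 gene, had a lower mean in Wnt GOF ventricles, but did not pass the test. It was at 185, 226 and 298 CPM (lowest, median and highest) in control and at 115, 200 and 251 CPM in Wnt GOF libraries. Of the 6 Wnt GOF libraries 3 lay below the lowest control library, and 1 lay above the control median. The means were 234 ± 43.0 and 184 ± 57.5 CPM, a log2 fold change of -0.35 ± 0.197 (SE) with an interval from -0.77 to 0.08 (edgeR adjusted p = 0.946). The lowest values came from the close pair Wnt GOF 3 and 4, at 117 and 115 CPM, while their set's control libraries were at 202 and 185 CPM. In set 2 the Wnt GOF libraries were at 217 and 224 CPM against 271 and 298 CPM in control. In set 1 the genotypes overlapped, with 251 and 182 against 216 and 236 CPM, and the high value was Wnt GOF 5. With the sets as a block the log2 fold change was -0.39 ± 0.107, with an unadjusted p of 0.00342 but an adjusted p of 0.0932 in edgeR, and the sets were drawn from these same libraries. Without both libraries of the low pair it was -0.10 ± 0.131 (edgeR adjusted p = 0.894), and with the close pairs summed -0.23 ± 0.205.

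Gja4, the Cx37 gene, had the smallest p of the members. It was at 33.1, 38.8 and 44.9 CPM (lowest, median and highest) in control and at 36.3, 46.5 and 61.6 CPM in Wnt GOF libraries. Of these, 4 lay above the highest control library and 5 above the control median. The means were 39.5 ± 4.57 and 48.4 ± 9.33 CPM, a log2 fold change of 0.29 ± 0.120 (SE), or 1.23-fold with an interval from 1.03 to 1.46. The unadjusted p was 0.0260 and the adjusted p in edgeR 0.615, so it missed the threshold. With the close pairs summed the log2 fold change was 0.32 ± 0.131 (edgeR unadjusted p = 0.0292). Without Wnt GOF 3 and 4 it was 0.42 ± 0.108 (edgeR adjusted p = 0.225). The unadjusted p in edgeR rose to 0.0686 without control 1, 0.0629 without Wnt GOF 2 and 0.0791 without Wnt GOF 6. The 2 highest libraries were Wnt GOF 6 at 61.6 and 2 at 56.8 CPM. In set 3 the genotypes overlapped, with Wnt GOF at 36.3 and 42.8 CPM against 40.3 and 44.2 CPM in control. Gja4 is known from vascular endothelium, but which cells held it here was not tested. Endothelial and endocardial markers (13 genes) summed to 874 to 1018 CPM in control and 962 to 1047 CPM in Wnt GOF libraries. Of the 13, 0 were called, with a median log2 fold change of 0.03. Relative to that sum, Gja4 was 3.65% to 4.87% in control and 3.72% to 5.89% in Wnt GOF libraries, a difference in log2 ratio of 0.18 (exact two-sided permutation p = 0.177).

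Gjc1, the Cx45 gene, was the steadiest member. It was at 46.0, 56.4 and 60.3 CPM (lowest, median and highest) in control and at 50.6, 57.6 and 60.4 CPM in Wnt GOF libraries, a coefficient of variation over all libraries of 7.86%. The corresponding figure was 24.4% for Gja1, 26.3% for Gja5, 19.1% for Gja4 and 36.7% for Gja3. The log2 fold change was 0.05 ± 0.0761 (SE) with an interval of 0.93-fold to 1.16-fold (edgeR adjusted p = 0.999). The lowest control values, 46.0 and 51.4 CPM, were control 2 and 3, the libraries with the most Gja1, and the lowest Wnt GOF value, 50.6 CPM, was library 6.

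Gja3 and Gjd3 were low. Gja3, with 16 to 75 counts per library, was at 1.61, 2.31 and 4.31 CPM in control and at 1.40, 2.38 and 3.81 CPM in Wnt GOF libraries, which overlapped widely. Its log2 fold change was -0.15 ± 0.281 (SE), with an interval from -0.75 to 0.45 (edgeR adjusted p = 0.999), and its sign turned under some processing. Gjd3 had 6 counts in all, 2 in control 3, 3 in Wnt GOF 4 and 1 in Wnt GOF 5. The other 9 libraries had 0, which allows up to 0.175 to 0.296 CPM of the library total, so no comparison was possible at this depth. These limits cover counting error only.

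**Figure D2:**
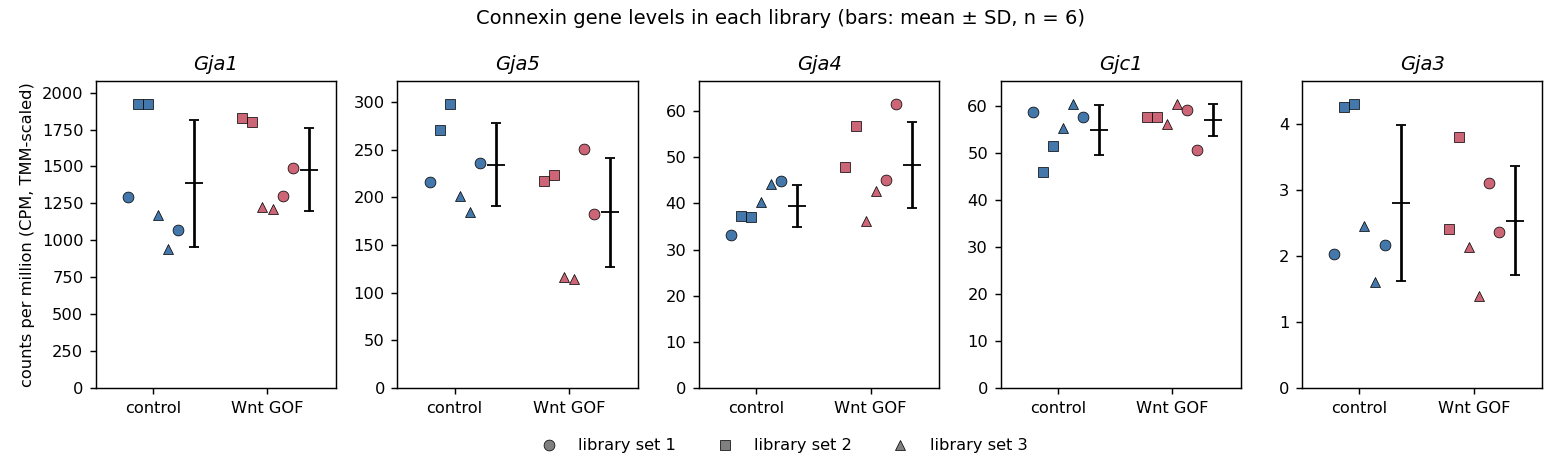
CPM of 5 connexin genes in each library by genotype, with the axis from 0. Symbols give the library set, and bars the mean ± SD of 6 libraries. The set 2 libraries are the 4 highest for Gja1, and the 2 lowest Gja5 values are Wnt GOF 3 and 4 of set 3.

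The authors' deposited table, made with another test, gave log2 fold changes of 0.12 for Gja1, -0.401 for Gja5, 0.283 for Gja4, 0.0572 for Gjc1, -0.134 for Gja3 and 0.205 for Gjd3. In the authors' deposited table Gja4 (p = 0.0368) and Gja5 (p = 0.0418) had an unadjusted p under 0.05. Their adjusted values in the authors' deposited table were 0.746 and 0.781.

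**Figure D3:**
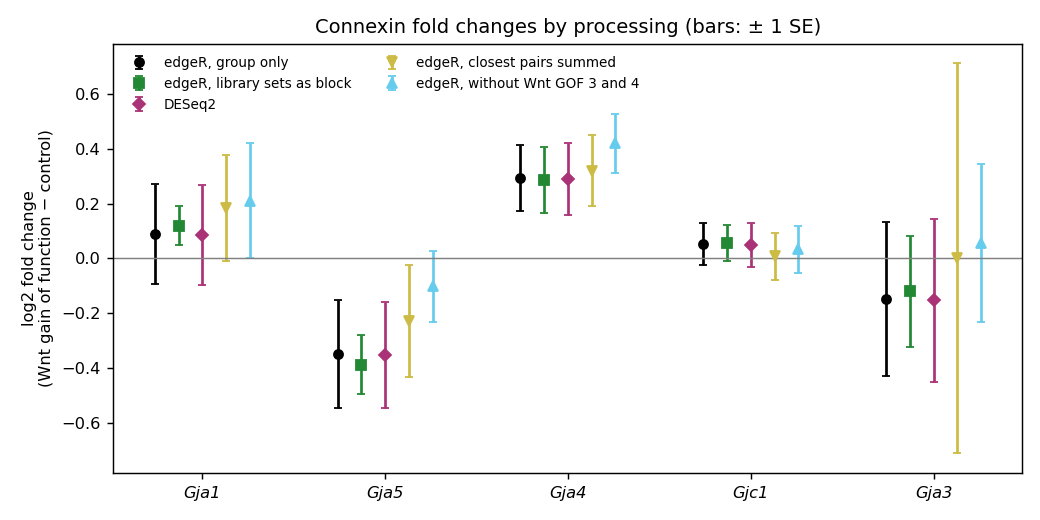
Log2 fold change of Wnt gain of function against control for 5 connexin genes in 5 analyses, with bars of 1 SE. Gja5 moves from -0.35 to -0.10 when Wnt GOF 3 and 4 are left out, and Gja3 crosses 0.

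Ratios within a library do not depend on how libraries are scaled, and 7 were compared between genotypes by an exact two-sided permutation test over libraries. Gja5 counts were 14.1%, 16.9% and 22.03% of Gja1 counts (lowest, median and highest) in control and 9.46%, 12.04% and 19.3% in Wnt GOF libraries. Of the 6 Wnt GOF libraries 5 lay below every control library, the exception being Wnt GOF 5. The mean log2 ratio of Gja5 to Gja1 differed by -0.52, or 0.698-fold (exact permutation p = 0.0216, adjusted over the 7 ratios 0.0657), and thus missed the threshold once adjusted. By library set, the 2 control libraries and then the 2 Wnt GOF libraries were at 14.1% and 15.5% against 11.9% and 12.4% in set 2, at 17.2% and 19.6% against 9.53% and 9.46% in set 3, and at 16.7% and 22.03% against 19.3% and 12.2% in set 1.

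Gja5 was also compared with Gja4, the other connexin of arterial endothelium, with the endothelial markers and with Nppa, a natriuretic peptide gene of trabecular myocytes. Gja5 counts were 417% to 803% of Gja4 counts in control and 268% to 557% in Wnt GOF libraries, a difference in log2 ratio of -0.67 (exact permutation p = 0.0195, adjusted 0.0657). They were 20.3% to 29.3% of the summed endothelial markers in control and 11.8% to 26.1% in Wnt GOF libraries, a difference of -0.49 (exact permutation p = 0.0455, adjusted 0.0795). Against Nppa the difference was -0.91 (exact permutation p = 0.0281, adjusted 0.0657), and Nppa itself was at 815 ± 128 and 1170 ± 187 CPM. These 4 ratios share the Gja5 counts and are no independent evidence of each other. Without Wnt GOF 5 all 4 passed, each with an adjusted p of 0.0189 by exact permutation. In the other 15 of 16 alternatives, every other single omission among them, none of the 4 passed. The difference of medians reused the p-values of the means, so its outcome was fixed. With the replicate number as a block, the 64 sign flips of the differences allowed no p under 0.03125. The 4 ratios alone could therefore not pass there after adjustment. Gja4 to Gja1 and Gjc1 to Gja1 differed by 0.16 and -0.07 on the log2 scale (exact permutation p = 0.506 and 0.799). With the close pairs summed, which leaves 5 control and 4 Wnt GOF samples, the Gja5 to Gja1 difference was -0.48 (exact permutation p = 0.0714, adjusted 0.233). Without Wnt GOF 3 and 4 it was -0.34 (exact permutation p = 0.0952, adjusted 0.217), and the difference from the endothelial markers was -0.21. The Gja5 to Nppa difference was -0.71 with the close pairs summed (exact permutation p = 0.127, adjusted 0.233) and -0.54 without Wnt GOF 3 and 4 (exact permutation p = 0.124, adjusted 0.217).

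**Figure D4:**
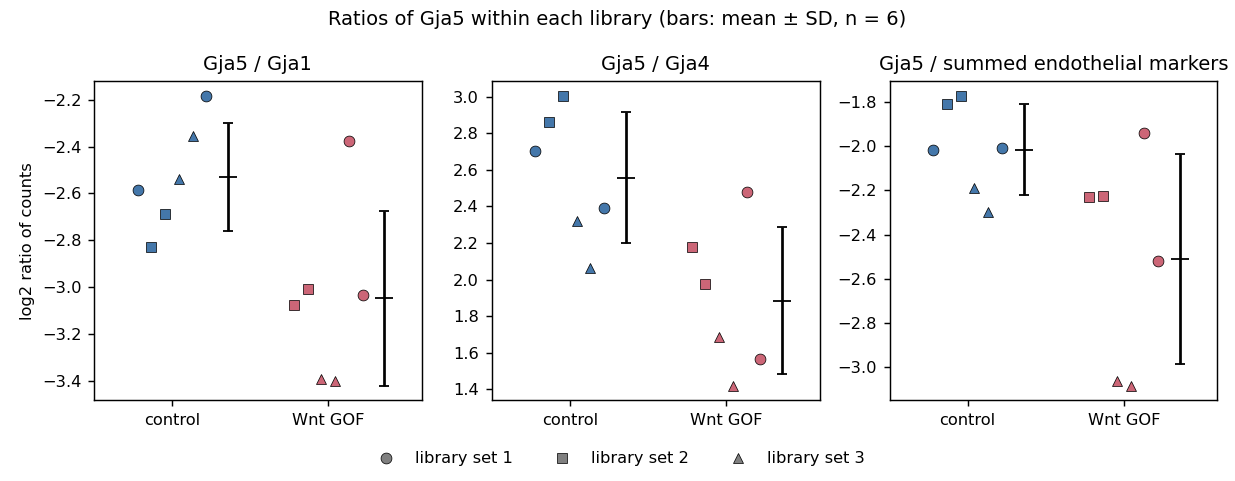
Log2 ratio of Gja5 counts to Gja1, to Gja4 and to the summed endothelial and endocardial markers in each library, by genotype, with mean ± SD of 6 libraries and symbols for the library sets. In the first panel 5 of 6 Wnt GOF libraries lie below all control libraries.

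Gja1, Gja3 and Gja5 had their highest values in the same pair of control libraries, but not in the same Wnt GOF libraries. Control 2 and 3, the highest libraries for Gja1, were also the highest for Gja3, at 4.26 and 4.31 CPM, and for Gja5, at 271 and 298 CPM, and control 2 was the lowest for Gjc1. Wnt GOF 1 and 2, next highest for Gja1, held Gja5 at 217 and 224 CPM, below Wnt GOF 5 at 251 and control 6 at 236 CPM, and Wnt GOF 1 held Gja3 at 2.41 CPM. Wnt GOF 4 was the lowest for Gja3 and for Gja5. Over the 12 libraries the genes whose log2 CPM was most like Gja1, among 10653 compared, were AW551984 (Pearson r = 0.979), Ttyh2 (0.978) and Kit (0.960). Those most like Gja5 were Fgf1 (0.966), Arhgef3 (0.963) and Tmod1 (0.957), and those most like Gja3, among 10654 compared, included Adgre5 (0.924) and Cpsf7 (0.914). Gjc1 was most like Rrp36 (0.916), Pde5a (0.872) and Dhx8 (0.869), and Gja4 most like Elp3 (0.879), Noc4l (0.874) and Lss (0.873). These are the highest of all these values over libraries that fall into sets and close pairs, and they are given as a description without a test.

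**Figure D5:**
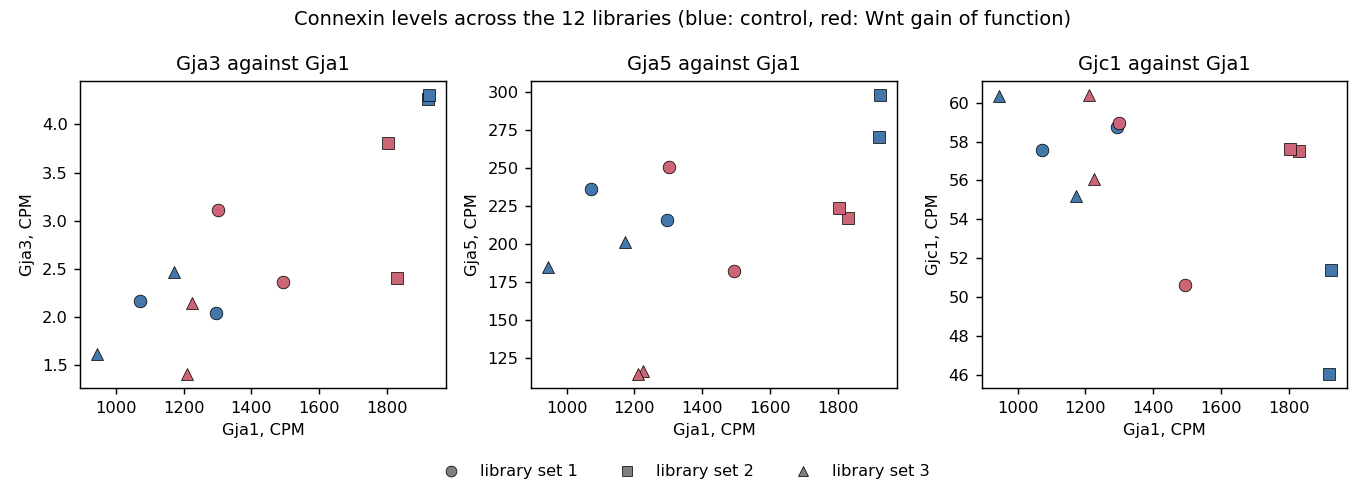
CPM of Gja3, Gja5 and Gjc1 against CPM of Gja1 in the 12 libraries, coloured by genotype with symbols for the library sets. The 2 control libraries of set 2 combine the highest Gja1, Gja3 and Gja5 with 2 of the 3 lowest Gjc1 values.

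The rest of the gap junction family was sparse in these ventricles. The low-count filter, which can favour genes that are high in 1 group, kept 4 of 17 other connexin and pannexin genes. In edgeR 0 of the 4 were called and 2 had an unadjusted p under 0.05, a level that 6.3% of all tested genes reached. Gjb5, a connexin best known from skin and placenta, was at 0.783 ± 0.552 and 1.96 ± 0.658 CPM, a log2 difference of 1.30 ± 0.403 (SE, edgeR adjusted p = 0.317). Panx1, which forms membrane channels unrelated in sequence to connexins, was at 4.80 and 5.57 CPM, and Panx2 at 0.799 and 1.07 CPM. Gjc3 and Gje1 had 0 counts in all libraries.

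Genes whose products bind, anchor or turn over connexins gave no call. Among 21 partners and trafficking genes edgeR called 0, and the median log2 fold change was -0.04. It put 1 under an unadjusted p of 0.05, as it did 6.3% of all tested genes. That 1 was Nov, a secreted protein that can bind Cx43, at 3.25 ± 1.23 and 1.82 ± 0.954 CPM (log2 difference -0.82, edgeR adjusted p = 0.722). Cdh2, the cadherin of the intercalated disc, was at 225 ± 51.7 and 195 ± 14.2 CPM (edgeR adjusted p = 0.954). Tjp1, the scaffold that binds the Cx43 tail, had a log2 fold change of 0.03.

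The regulator list held 20 transcription factors and other genes known to act on connexin genes or on the tissues that express them. In edgeR 0 of the 20 rose and 1 fell, against 0.433% and 0.0677% of all tested genes. Of the 20, 6 had an unadjusted p under 0.05, a level that 6.3% of all tested genes reached. Hey2, a transcriptional repressor made in compact ventricular muscle, fell from 97.4 ± 6.90 to 72.4 ± 5.64 CPM (log2 difference -0.43, edgeR adjusted p = 0.0145, but 0.208 with the close pairs summed and 0.0504 in limma-voom). The genotypes did not overlap in Hey2, as in 0.46% of all tested genes. Hey1, its relative in arterial endothelium, was at 11.6 ± 2.35 and 8.06 ± 0.832 CPM (log2 difference -0.52, edgeR adjusted p = 0.186). Tbx5, an activator of Gja5, was at 81.4 and 97.0 CPM (log2 difference 0.25, edgeR adjusted p = 0.510), and Tbx3, a repressor of Gja1 and Gja5 in conduction tissue, at 13.01 and 17.3 CPM (0.41, edgeR adjusted p = 0.760). Irx3, a regulator of connexins in the ventricular conduction system, was at 6.89 and 9.43 CPM (0.45 on the log2 scale, edgeR adjusted p = 0.701). Gata6, a cardiac transcription factor, was at 207 and 185 CPM (-0.16 on the log2 scale, edgeR adjusted p = 0.748). Tbx5, Tbx3, Irx3 and Gata6 were named after their values were seen.

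Among markers of the cell types that carry connexins, 1 was called, where 0.501% of all tested genes were. Of 9 arterial endothelial markers 0 were called, with a summed level of 698 to 779 CPM in control and 713 to 777 CPM in Wnt GOF libraries. Of 9 mural cell markers Rgs5 fell, from 78.8 ± 29.7 to 13.5 ± 9.17 CPM (log2 difference -2.54, edgeR adjusted p = 0.0404). It lost the call with any 1 library but control 6 or Wnt GOF 5 left out, at adjusted p values up to 0.113, and had 0.579 with the close pairs summed. The sum of the 9 was 1628 to 2023 and 1539 to 1761 CPM. Of the 10 atrial and atrioventricular canal markers and the 12 ventricular and trabecular markers 0 were called. The atrial sum ranged from 2671 to 5263 CPM in control and from 3598 to 4799 CPM in Wnt GOF libraries. Epicardial, cushion and fibroblast markers (12 genes) had 0 calls, with sums of 1716 to 2400 against 1617 to 2053 CPM. Macrophage and leukocyte markers (9 genes) had 0 calls, with sums of 53.3 to 75.9 against 56.3 to 104 CPM. Of these 9 genes, 4 had an unadjusted p under 0.05 in edgeR, a level that 6.3% of all tested genes reached. The genes with the lowest p in these lists missed the threshold in edgeR, Rgs5 apart. Among the myocyte markers these were Slit2, a guidance factor (log2 difference 0.39, adjusted p = 0.0569), and Nppa (0.52, adjusted p = 0.0842). The atrioventricular canal factor Msx2 had a log2 difference of 1.82 (adjusted p = 0.133) and the atrial light chain gene Myl4 0.22. In endothelial lists these were Npr3 at 0.44, Tek at 0.16, Bmx at 0.21 and Hey1. Notch3 of mural cells was at -0.28, the collagen genes Col1a1 and Col3a1 at -0.52 and -0.14, and the myeloid genes Aif1 and Tyrobp at 0.58 and 0.59. The part of these cell types in the connexin values was not tested.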

How the data were processed

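The authors deposited raw read counts for each Ensembl gene ID, and the submitters' processing notes name Subread, featureCounts and edgeR. Genome build, annotation and versions are, like the strand setting, not given in the sources used here. The authors' deposited comparison table holds log2 fold changes with intervals and p-values, per the file headers. Of 41422 rows, 40800 gene IDs were kept once each.

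Counts were tested in R 4.3.3 with edgeR 4.0.16 (filterByExpr with a minimum count of 10, TMM scaling, robust quasi-likelihood test with group as the only term, Benjamini-Hochberg over 14774 genes, threshold 0.05). DESeq2 1.42.0 and limma 3.58.1 were alternatives, as were other scalings and filters, blocks by replicate number and library set, and each library left out. CPM uses TMM-scaled library sizes. Ratios are log2 of counts with 0.5 added. The edgeR step was tested on simulated counts. Lengths come from GENCODE M21, and promoter sequences from RefSeq, GRCm38.p6.

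Genes named beyond the members are the 2 of each list (4 of the connexin family list) with the lowest p, every called gene, Axin2 and Ctnnb1, and the 3 genes most like each member (mean log2 CPM of at least 2, symbol not of Gm or Rik type). Myl2, Myl7, Sln, Tjp1, Gjc3 and Gje1 were named after their values were seen. The submitters' table was used for its member rows only. The members and lists were chosen with earlier results of these data known. Library sets come from average-linkage clustering, into 3, of correlations between libraries' deviations from group means. Some genes that the rule takes are not reported here.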

Additional observations from a re-analysis of the deposited data

How the results depend on the processing

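The count of connexins called was 0 in every analysis run, among them other scalings, no or a stricter count filter, DESeq2, limma-voom, both blocks and each library left out. Gja1, Gja4, Gja5 and Gjc1 kept their direction in all 24 alternatives. Gja3 turned to 0.00017 on the log2 scale with the close pairs summed, to 0.056 without Wnt GOF 3 and 4, and to 0.030 without control 3. With 1 library left out, fold changes ranged from 0.0043 to 0.21 for Gja1, -0.31 to 0.030 for Gja3, 0.21 to 0.36 for Gja4, -0.46 to -0.24 for Gja5 and 0.0087 to 0.084 for Gjc1.

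Over all genes, 74 calls became 160 with DESeq2, 6 with limma-voom, 295 with the library sets as a block, 1 with the close pairs summed and 11 without Wnt GOF 3 and 4. They ranged from 39 to 177 with 1 library left out, the highest without Wnt GOF 5. The close pairs and the omission of libraries 3 and 4 were chosen after seeing the data.

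Ratios, with 1 library left out, ranged from -0.65 to -0.45 for Gja5 to Gja1, 0.034 to 0.29 for Gja4 to Gja1, -0.22 to 0.060 for Gjc1 to Gja1, -0.79 to -0.58 for Gja5 to Gja4, 0.12 to 0.25 for Gja4 and -0.61 to -0.38 for Gja5 to the endothelial markers, and -1.09 to -0.75 for Gja5 to Nppa. Gjc1 to Gja1 turned to 0.060 without control 5 and 0.010 without control 6. The difference of medians reused the main p-values and the replicate block had a floor on p, so neither could let the 4 Gja5 ratios pass alone. Of 16 alternatives, these among them, the 4 Gja5 ratios passed only in the 1 without Wnt GOF 5. There they were -0.65 to Gja1, -0.79 to Gja4, -0.61 to the endothelial markers and -1.09 to Nppa. The cause was not tested.

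Libraries that share a replicate number were mostly not alike, which cannot settle whether they are pairs, and the labels do not say. Deviations of same-numbered libraries correlated from -0.377 to 0.463, and 3 of 12 libraries correlated best with their own number. With the replicate number as a block edgeR called 55 genes and 0 connexins, with Gja5 at -0.39 (adjusted p = 0.974) and Gja4 at 0.28 (0.581).

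Of the called genes named, Axin2 kept its direction in all 24 alternatives and its call in 20, Hey2 its call in 22 and Rgs5 in 10.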
